A study of Mus musculus with 47 samples.

Results

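The genes described here are 9 factors and surface markers of blood stem and progenitor cells, grouped because they are often read as a stem-cell programme in acute leukaemia: Hoxa5, Hoxa7, Hoxa9, Hoxa10, Meis1, Mecom, Cd34, Myb and Sox4. They were chosen by name out of 18193 genes on the array, and all 9 passed the filter on low values (above log2 5 in at least 9 arrays), which left 18178 genes for testing. Each gene is represented by the probe set with the highest mean over the 47 arrays among those that name a single gene. Because probe sets differ in how brightly they hybridise, each gene is read against itself across mice and never against another gene.

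The material was leukaemic spleen from 47 mice, 1 array per mouse, at the terminal stage of a leukaemia labelled myeloid and undifferentiated. All mice carried a Cre transgene under the ACTB promoter (Tg(ACTB-cre)2Mrt), the Sleeping Beauty transposase at the ROSA26 locus (Gt(ROSA)26Sortm2(sb11)Njen) and the mutagenic transposon T2/Onc2 in line 6070 (26 mice) or line 6113 (21 mice). The transposase was thus switched on in all tissues, and each leukaemia carries its own insertions. The labels gave an insertion in Erg, an ETS family transcription factor of stem cells and megakaryocytes, for 26 tumours (17 in line 6070 and 9 in line 6113) and none for 21 (9 and 12). Ages at necropsy, whose unit the labels do not give, were 49 to 97 (median 74) with the insertion label and 32 to 89 (median 54) without it. No spleen without leukaemia was analysed here, so no normal level stands beside these values. The values are log2 expression values on which the authors ran RMA, with a floor near 5: the lowest 25% of values lay under 5.08, and array medians fell in the range 5.19 to 5.24. Differences close to that floor are compressed. The sex labels matched the Xist and Y-linked transcripts in 23 arrays and did not match in 24, so the pairing of arrays with labels is in doubt, and arrays are named below by their labels. Relations between genes within the arrays do not use the labels. In bulk tissue, fewer cells of a type and less RNA per cell cannot be told apart.

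HoxA genes encode homeodomain transcription factors that are active in haematopoietic stem cells and shut off as cells mature. Meis1 encodes a homeodomain partner that binds DNA with HoxA and Pbx proteins, and Mecom (Evi1) encodes a zinc-finger factor needed by long-term stem cells. In human and mouse acute myeloid leukaemia these genes are often switched on together. Cd34 encodes a surface sialomucin of progenitors and endothelium, Myb a transcription factor that keeps progenitors of several lineages proliferating, and Sox4 an HMG-box factor required by B-cell precursors and often raised in leukaemia.

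The HoxA programme that the grouping names was not seen on these probe sets in the leukaemias as a group. The Hoxa9 probe set used ran from 5.29 to 5.66 with a median of 5.40, and 0 of 47 arrays passed log2 6; on its second probe set 1 array did. Hoxa7 ran from 5.21 to 5.55 (median 5.34) and Hoxa10 from 4.94 to 5.12 (median 5.03). On the probe sets used, these HoxA genes thus stayed within a narrow band near the floor, with a standard deviation between arrays of 0.06 for Hoxa9, 0.07 for Hoxa7 and 0.04 for Hoxa10. Hoxa5 ran from 5.69 to 6.30 (median 5.93), but its second probe set, which ran from 5.06 to 5.49, correlated with it at only r = 0.06, so the Hoxa5 signal is uncertain. Over all 48 probe sets of the 4 Hox clusters (33 genes), only 2 exceeded log2 6 in any array. In the 1 array where the second Hoxa9 probe set reached 6.58, the one used read 5.66. Low RNA and a weakly responding probe set cannot be told apart here.

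**Figure D1:**
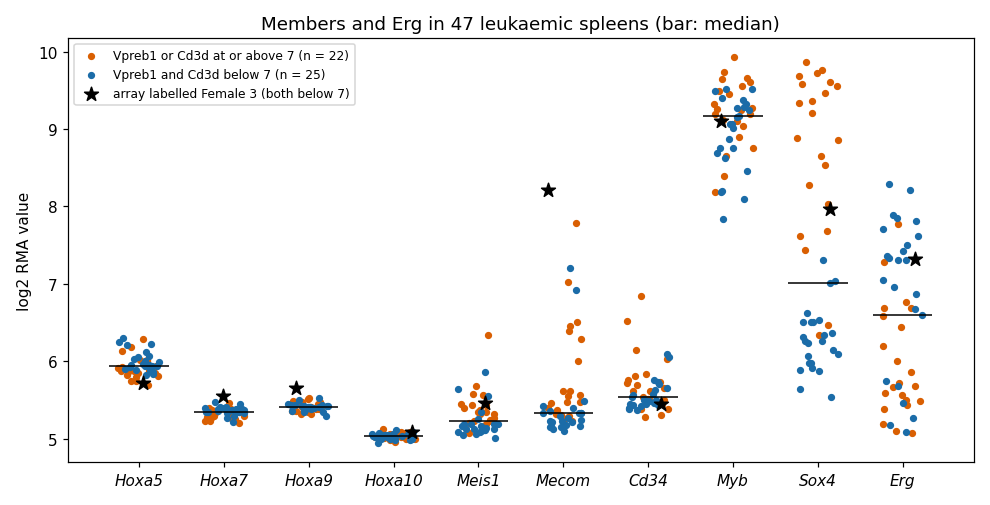
Log2 RMA values (y axis) of the 9 genes and Erg (x axis) in 47 leukaemic spleens, 1 point per array, with the median as a bar and the array labelled Female 3 as a star. The Hoxa7, Hoxa9 and Hoxa10 points form narrow bands near the floor, Mecom has a long upper tail, and Sox4 separates the arrays with high lymphoid markers (orange, n = 22) from most others (n = 25).

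One leukaemia stood apart. In the array labelled Female 3 (line 6113, no Erg insertion label) the second Hoxa9 probe set read 6.58, where the next highest array reached 5.36. The second Hoxa10 probe set read 5.49 there (next highest 5.09), and the second Hoxa5 probe set also 5.49 (next highest 5.39). Both probe sets of Hoxa4, their neighbour in the cluster, were highest in the same spleen, with 5.27 against 5.14 and 5.10 against 5.08. The Hoxa7 value of 5.55 (next 5.47) and the Hoxa9 value of 5.66 (next 5.52) were again the highest of 47. In all, 7 of 16 HoxA probe sets (43.8%), from 5 of 9 HoxA genes, peaked in that single spleen, against 0 of 11 in HoxB, 0 of 11 in HoxC and 0 of 10 in HoxD. For comparison, 2.45% of all probe sets on the array peaked there. The gap to the next array exceeded 0.2 for only 2 of the 7, the second Hoxa9 (1.22) and second Hoxa10 (0.41) probe sets, and was 0.02 to 0.14 for the other 5. The array labelled Male 12 held more Hox maxima (8 of 48, 1 of them HoxA), all with gaps of at most 0.07, and 4.83% of all maxima. This array was picked after its values were seen, so the counts are a description with no test.

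Mecom was likewise highest in that spleen, at 8.22, while Meis1 (5.45, rank 8) and Cd34 (5.45, rank 36) were not. The Hoxa5 probe set with the higher mean went the other way and ranked 46 of 47 there. Among all genes, the 4 that stood farthest above their median in this array were led by Myh6, a cardiac myosin chain, at 11.22 against a median of 5.04. Then came Bach2 at 8.67 (median 5.62), the granzyme gene Gzmb at 8.38, and Mecom (median 5.34). Bach2 and Gzmb each ranked only 3 of 47, while Myh6 and Mecom ranked 1 in this array. The lymphoid markers Vpreb1 (5.54) and Cd3d (5.37) were both low in it. These 4 genes were likewise singled out after their values were seen.

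**Figure D2:**
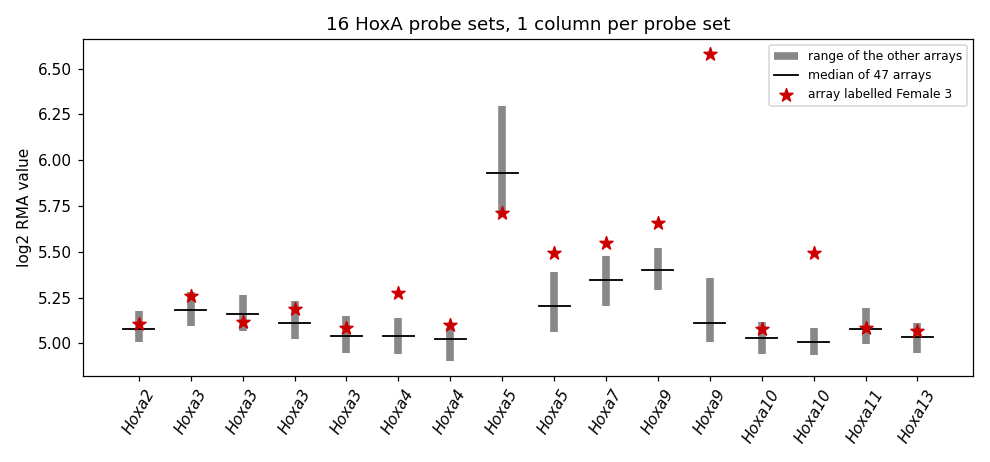
The 16 probe sets of the HoxA cluster (x axis, by gene) in log2 RMA units (y axis), with the range of the other arrays in grey, the median of 47 arrays as a bar and the array labelled Female 3 as a star. Its star lies above the grey range for 7 probe sets, by more than 0.2 only for the second Hoxa9 (6.58) and second Hoxa10 (5.49) probe sets.

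Meis1, Mecom and Cd34 varied together. Mecom ran from 5.10 to 8.22 with a median of 5.34, and 10 of 47 arrays passed log2 6, 4 of them log2 7. Meis1 ran from 5.00 to 6.33 (median 5.23), and only 1 array passed 6. Cd34 ran from 5.28 to 6.84 (median 5.53), and 6 arrays passed 6. High values were therefore confined to a minority of mice for each gene, on a scale whose floor hides differences among the rest. The other Mecom probe sets reached at most 5.28 and 5.14 and correlated with the one used at r = -0.16 and 0.46. Those of Meis1 reached at most 5.26 and 5.20, with r of 0.69 and -0.26. The Mecom and Meis1 relations below thus rest on 1 probe set per gene.

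The same mouse was at the top for several of them. The array labelled Male 16 had the highest Meis1 (6.33), Cd34 (6.84) and Sox4 (9.87) of all 47 and the second highest Mecom (7.79), but the lowest Hoxa7 (5.21). Male 7 reached Mecom 7.20 with Meis1 5.64, Male 18 reached 7.03 with 5.67, and Female 21 reached 6.92 with 5.86. None of these arrays had HoxA values above the common band, so in them high Mecom and Meis1 came without a visible HoxA signal. The array with the highest Mecom, Female 3 (8.22, with Meis1 at 5.45), was the one whose second Hoxa9 probe set read 6.58.

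Each pair was tested with limma by regressing every other gene on one member and adjusting over all 18177 (Benjamini-Hochberg). A pair counts as related only where it passed an adjusted p of 0.05 in both directions, with each gene in turn as the predictor. The larger of both adjusted p-values is given. Of 36 pairs, 4 passed. With Meis1 as predictor 6.58% of all genes were called, with Mecom 0.567%, with Cd34 3.84%, with Sox4 38% and with Hoxa5 9.67%. Meis1 and Mecom correlated at r = 0.78 over 47 arrays (Spearman's rho 0.68, limma adjusted p = 9.94e-07, permutation p = 1e-05 for each, the smallest the 100000 resamples can give). Meis1 and Cd34 correlated at r = 0.78 as well (rho 0.55, limma adjusted p = 4.10e-07, permutation p = 1e-05 for r). Without the 2 arrays farthest from the Meis1 median, these values were 0.69 and 0.61. Mecom and Cd34 correlated at r = 0.50, just outside the threshold (limma adjusted p = 0.0505, permutation p = 0.0023), and at 0.65 without the array labelled Female 3 (limma adjusted p = 0.00094).

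The Meis1 relations were then taken within arrays of low and of high lymphoid content. In the 25 arrays with Vpreb1 and Cd3d, markers of B-cell precursors and T cells, below log2 7, r was 0.70 with Mecom (limma adjusted p = 0.0290) and 0.67 with Cd34 (0.0477). In ranks these were weaker there, with rho of 0.40 (permutation p = 0.0474) and 0.19 (permutation p = 0.359). In the 22 arrays with either marker at or above 7, r was 0.88 (limma adjusted p = 0.00067) and 0.83 (0.0035). Without the 10 arrays with Mecom above 6, r between Meis1 and Mecom was 0.32 over 37 arrays (limma adjusted p = 0.272). Leaving arrays out by their Mecom level narrows the Mecom range, which by itself can lower r. In ranks over all arrays, Meis1 with Cd34 missed the threshold (rho 0.55, limma adjusted p = 0.0626).

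**Figure D3:**
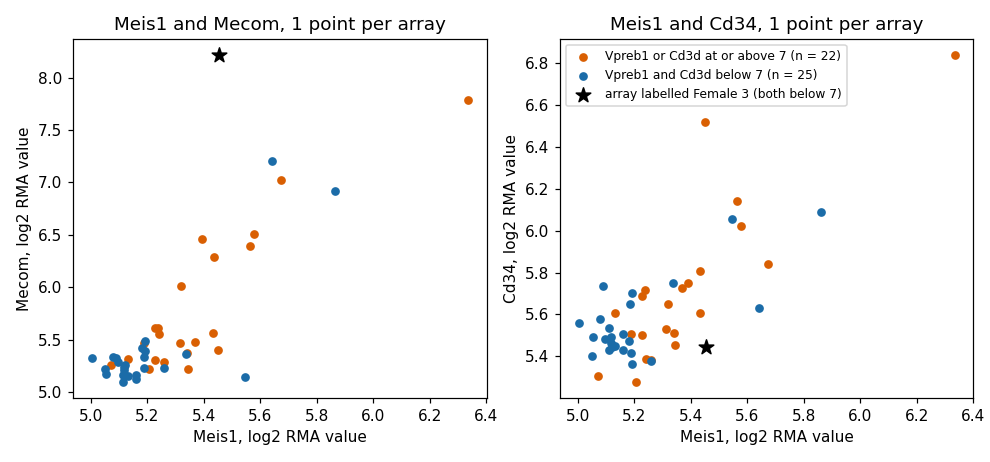
Mecom (left) and Cd34 (right) against Meis1 in log2 RMA units, 1 point per array, coloured by lymphoid markers, with the array labelled Female 3 as a star. Most arrays sit in the lower left corner; Mecom and Cd34 rise with Meis1 in the remainder (r = 0.78 for each over 47 arrays), with Female 3 off the Mecom trend.

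The genes nearest to Meis1 were led by Selp (r = 0.91), which encodes P-selectin of platelets and endothelium, followed by Gm10419 (0.89), the coagulation factor gene F10 (0.85), Stxbp6 (0.85) and the kinase gene Pim2 (0.81). The lowest were the carbonic anhydrase gene Car2 (r = -0.57) and D630033O11Rik (-0.57). Selp read 9.38 in Male 16 against a median of 5.59. Mecom had Meis1 itself, Gm10419 (0.75), Dlg3 (0.75), Selp (0.75) and Mansc1 (0.74) nearest, and 4933421H12Rik (-0.64) and Mir205hg (-0.61) lowest. Cd34 had the actin regulator Enah (0.85), Meis1, F10 (0.77), Pim2 (0.74) and the kinase gene Mapkapk2 (0.73) nearest, and Twistnb (-0.63) and Rbm39 (-0.59) lowest. All of these likeness values are Pearson r over 47 arrays. D630033O11Rik (highest 5.23), 4933421H12Rik (5.28) and Mir205hg (5.15) stayed at the floor, so their r rests on small differences. Gm10419 (5.855), Dlg3 (5.79), Stxbp6 (5.63) and Mansc1 (5.54) also passed log2 6 in no array.

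Some megakaryocyte and platelet markers rose with each of these 3 genes. Of 18 such markers, 10 rose with Meis1 and 0 fell, among them the platelet genes Selp, Mmrn1 (r = 0.75) and Gp9 (0.70), where 5.04% of all genes rose. With Cd34, 8 of 18 rose (3.09% of all genes), including Selp (0.73), Mmrn1 (0.57) and Vwf (0.56). With Mecom, 3 of 18 rose (0.473% of all genes), and the list mean was not related to it past the threshold (r = 0.36, limma adjusted p = 0.128). Monocyte and macrophage markers rose with Meis1 in 7 of 17 cases, led by Cd68 (r = 0.61), Lyz1 (0.60) and Lyz2 (0.59). Erythroid markers fell with Meis1 in 6 of 18 cases, where 1.54% of all genes fell, led by Car2, Ermap (-0.55) and Klf1 (-0.48), the last a master regulator of red cells. Stroma and endothelium markers rose with Cd34 in 5 of 20 cases, with Pecam1 (r = 0.55), Dcn (0.55) and Pdgfrb (0.47) foremost. Myeloid markers rose with Cd34 to a like degree. These were 3 of 12 neutrophil markers (Mmp9 at 0.58), 2 of 5 primary granule markers (Prtn3 at 0.56) and 3 of 17 monocyte and macrophage markers (Lyz1 at 0.55). Cd34 is itself made by endothelium, and the part of stromal or endothelial RNA in its level was not tested.

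The 250 bases before the annotated starts of these 3 genes are shown because the genes moved together and because Erg is an ETS factor. RefSeq entries (GRCm38.p6) matched all 9 genes, with 11 starts. Letters searched on both strands were CGGAAG (an ETS-type core), TGACAG (a Meis-type core) and TGATNNAT (a Hox-Pbx-type core), and matches are in capitals. Of 32851 promoters of this length, 13.6% hold the first, 15.9% the second and 7.68% the third. Meis1 (chr11:19018970-19019219, minus strand) holds 1 ETS-type match. Mecom holds 1 ETS-type and 1 Meis-type match at its downstream start (chr3:30013205-30013454, minus strand) and 1 Hox-Pbx-type match at its upstream start (chr3:30509760-30510009, minus strand). Cd34 (chr1:194938571-194938820, plus strand) holds 0 matches. Among the other starts, only that of Hoxa5 holds a match, 1 of the ETS type. A match describes letters, not a bound site.
Meis1: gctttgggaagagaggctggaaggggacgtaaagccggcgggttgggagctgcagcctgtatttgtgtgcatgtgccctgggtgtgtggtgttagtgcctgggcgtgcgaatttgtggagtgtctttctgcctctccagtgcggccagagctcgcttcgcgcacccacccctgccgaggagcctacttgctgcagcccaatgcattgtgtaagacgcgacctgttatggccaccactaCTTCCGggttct
Mecom downstream start: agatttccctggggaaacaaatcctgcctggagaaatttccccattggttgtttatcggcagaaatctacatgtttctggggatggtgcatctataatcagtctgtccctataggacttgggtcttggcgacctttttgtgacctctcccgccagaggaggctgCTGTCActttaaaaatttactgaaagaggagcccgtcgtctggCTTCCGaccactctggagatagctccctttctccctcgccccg
Mecom upstream start: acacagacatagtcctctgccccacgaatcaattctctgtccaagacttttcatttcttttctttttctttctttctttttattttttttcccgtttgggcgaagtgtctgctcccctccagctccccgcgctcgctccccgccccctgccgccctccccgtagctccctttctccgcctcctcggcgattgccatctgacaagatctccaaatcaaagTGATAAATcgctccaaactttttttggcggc
Cd34: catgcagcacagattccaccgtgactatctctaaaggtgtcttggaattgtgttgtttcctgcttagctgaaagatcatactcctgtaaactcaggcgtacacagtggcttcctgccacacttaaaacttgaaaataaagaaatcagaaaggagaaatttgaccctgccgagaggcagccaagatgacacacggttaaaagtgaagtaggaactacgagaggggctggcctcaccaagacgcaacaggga

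Sox4 varied widely between leukaemias and was higher where lymphoid and some myeloid markers were high. It ran from 5.54 to 9.87 with a median of 7.00, and 24 of 47 arrays passed log2 7. In the 22 arrays with Vpreb1 or Cd3d at or above 7, Sox4 averaged 8.72 ± 1.06 (SD, n = 22), and 20 of them passed 7. In the 25 others it averaged 6.35 ± 0.54 (SD, n = 25), and 4 passed 7. The groups overlapped: Male 10 had Vpreb1 at 9.82 with Sox4 at 6.47, Female 8 had 7.28 with 6.33, and Female 3 reached Sox4 7.96 with both markers low. These arrays were grouped by 2 marker levels and are not groups of the study. Male 10 also had the largest 3′ minus 5′ difference of the Gapdh and actin control probe sets (2.96), a measure of RNA quality.

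Of 13 B-cell precursor markers tested, 13 rose with Sox4, where 14.9% of all genes rose. The recombinase genes Rag1 (r = 0.88) and Rag2 (0.79) and the cytokine receptor gene Il7r (0.85) led. Of 13 B-cell markers 12 rose, led by Pou2af1 (0.83), and of 15 T and NK markers 12 rose, led by Klrd1 (0.47). Of 17 monocyte and macrophage markers 9 rose and 1 fell, led by the lysozyme genes Lyz2 (0.76) and Lyz1 (0.74) and by Ctss (0.72). Of 18 megakaryocyte and platelet markers 8 rose and 4 fell, with Ppbp at 0.64 and Nfe2 at -0.82. Erythroid markers fell in 13 of 18 cases, where 23.2% of all genes fell, with the erythroid factor Gata1 at r = -0.86 and the erythropoietin receptor gene Epor at -0.78. The genes nearest to Sox4 were Dpp4 (0.94), Jakmip1 (0.93), Il16 (0.93), Pde3b (0.92) and Ppp1r16b (0.91), and the lowest were Abcc4 (-0.87) and the transferrin receptor gene Tfr2 (-0.87). Sox4 also tracked the first principal component of all genes (r = 0.88), which held 35.7% of the variance, so a Sox4 relation is shared with a large part of the transcriptome.

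The other pairs that passed involved Sox4. Hoxa5 and Sox4 correlated at r = -0.48 (rho -0.45, limma adjusted p = 0.0183, permutation p = 0.00067), and Meis1 and Sox4 at r = 0.42 (rho 0.54, limma adjusted p = 0.0481, permutation p = 0.00212). With the first component as a covariate, r was -0.31 and 0.06, and both missed the threshold (limma adjusted p = 0.218 and 0.916). Within the 25 arrays of low lymphoid markers r was -0.22 and 0.57, and within the 22 others -0.69 and 0.14; of these, only Hoxa5 with Sox4 in the 22 arrays passed (limma adjusted p = 0.0480). Without Female 3, Meis1 with Sox4 missed the threshold (limma adjusted p = 0.0506). Hoxa5 itself fell with B-lineage markers, 10 of 13 B-cell markers and 6 of 13 B-precursor markers, where 2.87% of all genes fell. These counts rest on the probe set that its second probe set does not follow.

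**Figure D4:**
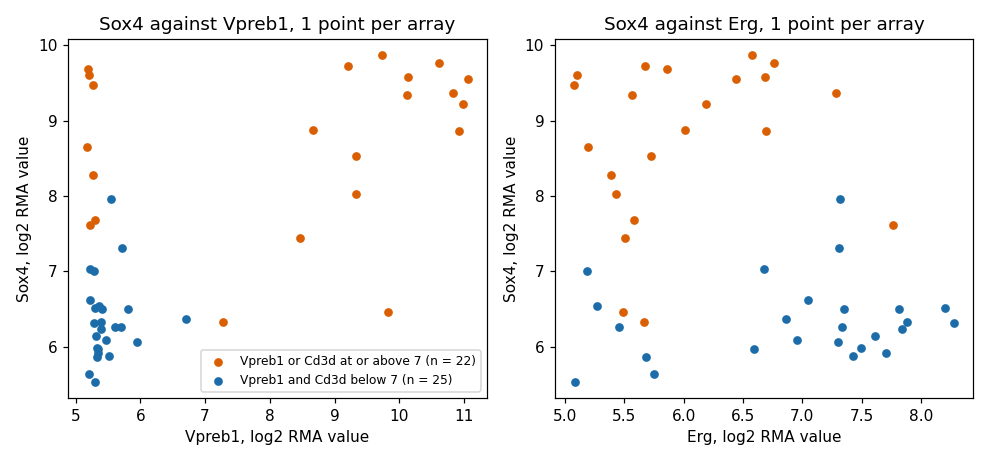
Sox4 against Vpreb1 (left) and against Erg (right) in log2 RMA units, 1 point per array, coloured by whether Vpreb1 or Cd3d reached 7. Arrays with a high marker lie mostly above Sox4 7 (20 of 22), and those high in Sox4 with low Vpreb1 are mostly high in Cd3d.

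Myb was bright in every leukaemia. It ran from 7.84 to 9.93 with a median of 9.17, and all 47 arrays passed log2 7. Its 2 other probe sets followed the one used (r = 0.97 and 0.88). The lowest value was in Female 21 and the highest in Male 17. With Myb as predictor 1.07% of all genes were called, and the nearest were the histone deacetylase gene Hdac7 (r = 0.75), Smarcd2, a subunit of the SWI/SNF chromatin remodeller (0.68), and Ddx54 (0.65). Brd3 and the lymphoid factor gene Ikzf1 came next, and Tmod1, a red-cell actin cap (-0.69), and St3gal2 (-0.64) were lowest. With Myb as predictor, 0 of 13 B-precursor markers and 1 of 18 erythroid markers (Tmod1) passed. With the list means as predictors, Myb was called with the B-precursor list (r = 0.41, limma adjusted p = 0.0152), as were 34.5% of all genes, and with the erythroid list (r = -0.38, 0.0338), as were 24.2%. Myb and Sox4 correlated at r = 0.42 (limma adjusted p = 0.101, permutation p = 0.00281), at 0.67 in the 22 arrays with high lymphoid markers and at -0.13 in the 25 others; that difference was not tested.

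The marker list means as predictors placed these relations against all genes. The erythroid list called 4 of the 9 members (24.2% of all genes), the B-precursor list 4 (34.5%) and the B-cell list 4 (31.9%). The monocyte and macrophage list called 3, Meis1, Cd34 and Sox4 (30.3%). The megakaryocyte and platelet list called 2, Meis1 and Cd34 (4.21% of all genes), and the stroma and endothelium list 1, Cd34 (3.39%). The neutrophil list (23.2%) and the primary granule list (10.6%) called 1 each, Cd34 in both (r = 0.47 and 0.42). The T and NK list (17.7%) called 1, Sox4. The mast cell, basophil and eosinophil list (9.48%) called 1, Hoxa5, and the cell cycle list (7.98%) called 0.

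**Figure D5:**
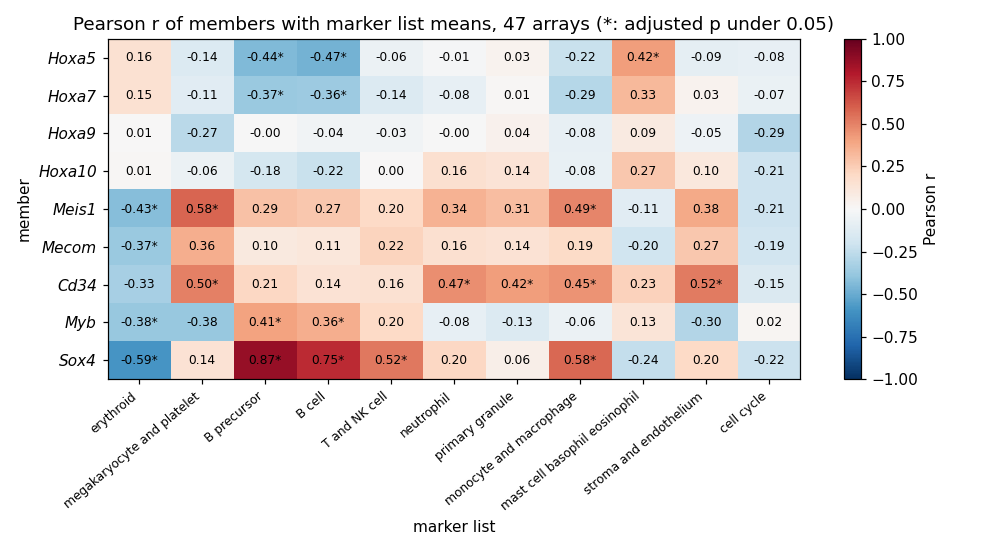
Pearson r (colour and number) over 47 arrays of each of the 9 genes (rows) with the mean of 11 marker lists (columns), an asterisk marking a limma adjusted p under 0.05. Meis1 and Cd34 were highest with megakaryocyte and platelet markers (0.58) and stroma and endothelium (0.52) respectively, and Sox4 with B-cell precursor markers (0.87).

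Within the HoxA cluster, Hoxa9 correlated with Hoxa10 at r = 0.51 (limma adjusted p = 0.114) and with Hoxa7 at 0.47 (0.100), and neither passed. Without Female 3 the latter was 0.29. With the most variable probe set of each gene, r between Hoxa9 and Hoxa10 was 0.91 (limma adjusted p = 2.99e-14), and in those probe sets Female 3 is far above the others. With Hoxa7 as predictor 1.22% of all genes were called, with Hoxa9 0.253% and with Hoxa10 0.0055%. Values this close to the floor leave little for any relation to rest on. The nearest genes were Gm29538 (r = 0.71) and Foxl1 (0.65) for Hoxa7, Wdr54 (0.77) and Myl1 (0.68) for Hoxa9, and Ptgdr (0.63) for Hoxa10.

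On the probe sets used, 0 of the 9 genes were related to the Erg RNA level past the threshold, where 15.9% of all genes were (limma, 2890 of 18177). Erg ran from 5.08 to 8.28 (median 6.59). Sox4 came closest, at r = -0.33 (rho -0.31, limma adjusted p = 0.0971, permutation p = 0.024). Meis1 was at -0.25 (rho -0.37, limma adjusted p = 0.250) and Mecom at -0.22 (rho -0.41, 0.335). The second Hoxa5 probe set passed, at 0.39 (limma adjusted p = 0.0462), while the one used was at 0.25 (0.241). Hoxa7 was at 0.31 (0.141), and Myb, Cd34, Hoxa9 and Hoxa10 lay between -0.15 and 0.11. In ranks Mecom passed (rho -0.41, limma adjusted p = 0.0300). For Sox4, r was 0.14 in the 25 arrays with low Vpreb1 and Cd3d and 0.19 in the 22 others (permutation p = 0.513 and 0.402). Those 22 pool arrays high in Vpreb1 with arrays high in Cd3d. With the first component as a covariate r was 0.34, but that component itself correlated with Sox4 (0.88) and Erg (-0.53). Whether lymphoid content bears on the relation of Sox4 to Erg was not tested. Within line 6070, Meis1 was at -0.56 (limma adjusted p = 0.0445) and in line 6113 at 0.02, but the interaction with line did not pass (limma adjusted p = 0.99984).

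Of other genes in the same pathways, counts against the Erg level were as follows, where 10.7% of all genes rose with Erg and 5.21% fell. Among 5 other HoxA genes 0 passed against Erg, among 18 HoxB, C and D genes 1 rose (Hoxd13, r = 0.41) and among 9 Hox cofactors 1 rose (Pbx3, 0.49), a DNA-binding partner of HoxA and Meis1. Of 21 chromatin regulators of Hox genes, Psip1 rose (0.54), while the polycomb subunit gene Rnf2 (-0.51) and Aff1 (-0.40) fell. Of 23 stem and progenitor factors 5 rose and 3 fell: Tcf15 (0.68), the stem-cell factor gene Gata2 (0.66) and Etv6 (0.61) rose and Ikzf2 fell (-0.51). Of 18 stem-cell surface genes 3 rose and 2 fell, led by Slamf1 (CD150; 0.80) and Robo4 (0.68), and by Cd27 (-0.44) and Thy1 (-0.41). Of 15 Myb partners and targets, Cdca7 (0.44) and Taf12 (0.38) rose and Gfi1 (-0.46) and Bcl2 (-0.40) fell. Of 6 other Sox genes 3 rose, Sox18 (0.66), Sox12 (0.50) and Sox5 (0.41), and of 5 listed Sox4 partners and targets 0 passed. Some of these genes stayed near the floor and passed log2 6 in no array. They were Hoxd13 (5.05 to 5.28), Sox5 (4.98 to 5.30), Robo4 (5.19 to 5.48), Sox12 (5.22 to 5.64) and Sox18 (5.28 to 5.96). Their relations to Erg rest on small differences. Over all genes tested, the median r with Erg was 0.05; over the stem-factor list it was 0.08 and over the other HoxA list 0.09.

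By the Erg insertion label, no member passed the threshold. Erg RNA itself averaged 6.73 with the label and 6.19 without it (two-sided permutation p = 0.0637). Of 18178 genes 0 were called (0%; limma, 666 at an unadjusted p under 0.05), with line and sex label as covariates. The largest differences, insertion minus none, were -0.31 for Sox4 and -0.25 for Myb (limma adjusted p = 0.999 for each), and Mecom differed by 0.16. Sox4 averaged 7.26 ± 1.42 (SD, n = 26) with the label and 7.72 ± 1.47 (SD, n = 21) without it (two-sided permutation p = 0.276), and Myb 8.97 ± 0.50 (SD, n = 26) and 9.19 ± 0.42 (SD, n = 21; permutation p = 0.116). The groups overlapped for each of the 9 genes. Line, sex label and age label also called 0 genes (540, 460 and 688 at an unadjusted p under 0.05). Given the doubt over the labels, these comparisons say how the arrays differ by label, not by genotype.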

How the data were processed

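The data were Affymetrix mouse 3′ expression arrays of spleen RNA. The authors deposited log2 values computed with RMA (affy, R 2.15, per the submitters' processing notes), a procedure that corrects background, quantile normalises arrays and summarises each probe set. Of 45101 probe sets, 64 are array controls and 34945 name a single gene. Probes were named from the platform annotation, and scanner files were not used here. Tests used limma 3.58.1 (lmFit, eBayes; R 4.3.3); p-values were adjusted by Benjamini-Hochberg across every gene tested and called under 0.05; the procedure was tested on simulated data. Correlations have two-sided permutation p-values from 100000 resamples (Python, numpy). A marker list mean is the mean of its markers' standardised values, without any of the 9 genes. Replicate numbers are in accession order and name arrays only. Genes named include the members and Erg, and genes among the 5 highest and 2 lowest by r per member. For the HoxA members only some or none of these are named. Also named are up to 4 pathway genes per list past the threshold against Erg, and up to 3 markers of a list related to a member. Members and lists were chosen with earlier results of these data known. Alternatives covered the filter, probe set choice, ranks, covariates, subsets and each array left out.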

Additional observations from a re-analysis of the deposited data

Results flagged for a closer look

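Groups of 4 to 10 arrays (18 combinations of gene and group) held 2 lone high values, both among the 9 arrays of line 6070 without the Erg insertion label. The limit used marks about 1 in 20 by chance only for normally distributed values. Mecom and Cd34 have long upper tails above the floor, so that rate need not hold for them. Mecom read 6.28 in the array labelled Female 13, with the next highest at 5.42; its gap took 0.759 of the range, above the limit of 0.493. Cd34 read 6.52 in the array labelled Male 10, with the next highest at 5.81 (0.646 of the range). Over all 47 arrays neither value was the highest, which was 8.22 for Mecom and 6.84 for Cd34. Male 10 also had the largest 3′ minus 5′ difference of the Gapdh and actin control probe sets (2.96), a measure of RNA quality. It held 8.74% of all probe set maxima, the most of any array. Whether this bears on its Cd34 value was not tested.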

How the results depend on the processing

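The count of genes related to Erg (2890) changed with the setting. With covariates it was 740 for the first principal component, 1113 for the first 3 and 1090 for the B-precursor and T and NK lists. It was 2936 with the cell cycle list and 3268 with the 3′ minus 5′ difference as a covariate. Ranks gave 3462. The count was lower in subsets: 821 in the arrays with low lymphoid markers and 2 in those with high ones (added after seeing the data). Line 6070 gave 1122, line 6113 gave 176, arrays with Xist 341 and those without 733. Arrays with identifier number 9 gave 1480, those with the insertion label 2324 and those without it 12. Leaving out each array gave 2442 to 3377. Of the 9 members, 0 passed against Erg, but 1 did in ranks and 1 in line 6070, and 0 to 1 on leaving out each array (Sox4, without Female 24); Hoxa5 passed on its second probe set (r = 0.39). Of the pairs (4), 1 passed under the stricter filter, where Meis1 and other dim members drop out, 7 with the most variable probe set, 2 with the first component, 2 with the first 3, 2 in arrays with low lymphoid markers, 1 in line 6070, 1 in line 6113, 0 with Xist, 0 without the insertion label and 1 without the arrays with Mecom above 6 (added). The cause of these changes was not tested. Subsets also hold fewer arrays, and the stricter filter holds fewer genes. Leaving out each array gave r of 0.72 to 0.86 for Meis1 with Mecom and 0.65 to 0.83 for Meis1 with Cd34. By the insertion label the count was 0 in all settings run, and a sign change was counted only where a value passed the threshold, which happened 0 times. No paired analysis was possible because replicate numbers are accession order and shared by no animals. Array number and the RMA floor limit precision.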
